A study of Mus musculus with 45 samples.

Results

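Transcripts of the MAPK phosphatases of the dual specificity phosphatase (DUSP) family were measured in bone marrow-derived macrophages. The 9 genes *Dusp1*, *Dusp2*, *Dusp3*, *Dusp4*, *Dusp5*, *Dusp6*, *Dusp7*, *Dusp10* and *Dusp16* were chosen by name, with no measured value in the rule, from the 29307 genes counted. Earlier results of these data were known when they were chosen. All 9 were found by symbol and Ensembl identifier, and all 9 passed the filter on low counts. The macrophages came from 15 C57BL/6N mice of 6 to 10 weeks of age, 5 of each of 3 *Famin* genotypes. *Famin*, listed here under its other symbol *Lacc1*, encodes a purine enzyme. The mice were engineered to carry a human form of the protein, named here by residue: p254I (the non-risk form), p254V (the form linked to risk of Crohn's disease and leprosy) or p284R (the form found in monogenic disease). Marrow cells were cultured for 6 days with M-CSF. They were then left unstimulated (M0), given 50 ng/mL IFN-γ with 20 ng/mL LPS for 24 h (M1), or given 20 ng/mL IL-4 for 24 h (M2). The 45 libraries of poly(A) RNA therefore form 9 groups of 5. Libraries of 1 genotype with the same replicate number were taken as cultures of the same mouse, and p-values measure the spread between these mice and cultures.

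MAPK phosphatases remove phosphate from both the threonine and the tyrosine of the activation loop of ERK, JNK and p38, which shuts these kinases off. Several of their genes are themselves switched on by MAPK signalling, so the enzymes act as feedback brakes. DUSP1, DUSP2, DUSP4 and DUSP5 are inducible nuclear enzymes, DUSP6 and DUSP7 are cytoplasmic and prefer ERK, DUSP10 and DUSP16 prefer JNK and p38, and the small atypical DUSP3 (VHR) lacks the kinase-docking domain of the others. In macrophages, DUSP1 is known for limiting p38 activity and cytokine output after Toll-like receptor ligation.

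By the GENCODE vM21 annotation of mm10, the gene bodies of the inducible nuclear members lie on 4 chromosomes, *Dusp1* (ENSMUSG00000024190) at chr17:26505590-26562128 (minus strand), *Dusp2* (ENSMUSG00000027368) at chr2:127336159-127338376 (plus strand), *Dusp4* (ENSMUSG00000031530) at chr8:34807297-34819894 (plus strand) and *Dusp5* (ENSMUSG00000034765) at chr19:53529109-53542431 (plus strand). The ERK-selective pair comprises *Dusp6* (ENSMUSG00000019960) at chr10:99263231-99267489 (plus strand) and *Dusp7* (ENSMUSG00000053716) at chr9:106368632-106375724 (plus strand). The pair that prefers JNK and p38 comprises *Dusp10* (ENSMUSG00000039384) at chr1:184013302-184075636 (plus strand) and *Dusp16* (ENSMUSG00000030203) at chr6:134715468-134792625 (minus strand). The atypical member is *Dusp3* (ENSMUSG00000003518) at chr11:101971143-101987013 (minus strand). No 2 of the 9 share a chromosome.

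The upstream sequences of 3 members are shown because they differ in motifs read by MAPK-responsive factors, and because the levels of these 3 genes followed different patterns. They were taken from RefSeq on GRCm38.p6 and run 5′ to 3′ on the gene's strand, from 250 to 41 bases before the RefSeq start. RefSeq entries were found for 8 of the 9 members, and *Dusp4* is the member without an entry. Capitals mark matches to the motifs described after the sequences, and the *Dusp10* window held none. The windows lie at chr17:26508513-26508722 (minus strand, *Dusp1*), chr19:53528895-53529104 (plus strand, *Dusp5*) and chr1:184034131-184034340 (plus strand, *Dusp10*), and no annotated exon of these genes overlaps them.
Dusp1: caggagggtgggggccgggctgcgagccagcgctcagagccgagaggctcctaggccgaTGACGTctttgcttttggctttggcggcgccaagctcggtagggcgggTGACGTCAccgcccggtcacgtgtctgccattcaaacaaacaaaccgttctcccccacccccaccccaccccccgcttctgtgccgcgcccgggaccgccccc
Dusp5: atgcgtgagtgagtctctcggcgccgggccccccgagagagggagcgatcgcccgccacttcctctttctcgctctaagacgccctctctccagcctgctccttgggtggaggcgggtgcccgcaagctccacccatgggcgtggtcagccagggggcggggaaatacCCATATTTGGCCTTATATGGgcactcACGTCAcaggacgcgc
Dusp10: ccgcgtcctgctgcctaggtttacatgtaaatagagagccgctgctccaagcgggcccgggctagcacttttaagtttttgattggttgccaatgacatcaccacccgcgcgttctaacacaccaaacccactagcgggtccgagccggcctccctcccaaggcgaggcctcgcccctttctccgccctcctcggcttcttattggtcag

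Both strands were searched for each motif named here. *Dusp1* held 1 complete cyclic AMP response element (CRE, TGACGTCA), 143 to 136 bases before the start, and a separate CRE half-site (TGACGT) from 191 to 186 bases. The complete element also counts as a half-site on both strands. *Dusp5* held 2 adjoining CArG boxes, the motif read by serum response factor, from 82 to 73 and from 72 to 63 bases before the start, and 1 CRE half-site from 56 to 51 bases. A complete CRE was present in 0.998% of the 32851 RefSeq promoter windows of this length, a CRE half-site in 4.76% and a CArG box in 1.24%. No member window held AP-1 (TGANTCA), the STAT6 motif or the NF-κB motif. These were present in 5.84%, 4.94% and 6.01% of all windows. The other 5 windows searched, those of *Dusp2*, *Dusp3*, *Dusp6*, *Dusp7* and *Dusp16*, held no match to any of them. The matches describe letters in these windows, and their relation to the levels of the genes was not tested.

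Libraries held 17239009 to 43740283 counted reads (median 27553642), so that a millionth of the total was 17.2 to 43.7 reads. Levels below are CPM, reads scaled to the library size over the genes that passed the filter, after TMM normalization. The reads behind 1 CPM therefore differ somewhat from that range. In p254V M0 replicate 5, for example, 5087 reads of *Dusp1* gave 106 CPM. Macrophage markers (6 of 6 detected, 5432 to 11008 CPM in sum) were high in every library. The 6 M1 markers summed to 10139 CPM or more in M1 and to 185 CPM or less elsewhere, although *Il6* and *Il12b* stayed under 1 CPM. T cell markers summed to at most 1.27 CPM and mast cell and basophil markers to at most 0.274 CPM. The other lists differed between M0, M1 and M2, with medians of the sum of 51.7, 45.1 and 23.7 CPM for neutrophil, 34.3, 11.5 and 17.9 CPM for fibroblast, 9.20, 6.86 and 3.20 CPM for B cell and 0.795, 8.78 and 7.44 CPM for dendritic cell markers. Their part in the results below was not tested. In bulk RNA, fewer cells with a transcript and less transcript per cell cannot be told apart. One M1 library, p254I replicate 5, stood apart. Its M2 markers summed to 141 CPM against 7.96 to 23.9 CPM in the other 14 M1 libraries, with *Retnla* at 49.1 CPM against at most 0.249 CPM and *Arg1* at 40.8 CPM against at most 0.912 CPM. The p254I libraries with replicate number 4 in M0 and in M2 also stood apart, on a principal component of their polarization.

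Per kilobase of annotated exon, the scale on which genes can be compared with each other, *Dusp3* had the highest level in all 3 states. In M0 it averaged 63.7 ± 2.57 CPM per kb (SD, n = 15 libraries), above *Dusp1* (25.1 ± 7.82), *Dusp7* (16.9 ± 1.29), *Dusp6* (12.2 ± 3.797), *Dusp4* (7.58 ± 2.24), *Dusp5* (3.60 ± 0.960), *Dusp16* (2.10 ± 0.387), *Dusp2* (1.09 ± 0.222) and *Dusp10* (0.741 ± 0.162). Neighbours in that order overlapped in their library ranges, except *Dusp3* with *Dusp1* and *Dusp16* with *Dusp2*. The order changed with polarization. In M1, *Dusp10* ranked between *Dusp7* and *Dusp6* at 8.50 ± 0.761 CPM per kb, overlapping the former (10.5 ± 0.797) but not the latter (4.76 ± 1.10), and *Dusp4* was last at 0.551 ± 0.564. In M2, *Dusp4* ranked below *Dusp3* at 43.6 ± 6.89 CPM per kb, and its range overlapped neither *Dusp3* (64.6 ± 2.40) nor *Dusp1*, the next gene (15.8 ± 2.34). *Dusp10* was last in M2 at 0.884 ± 0.103. The levels of the 9 genes summed to 133 CPM per kb in M0, 74.7 in M1 and 156 in M2. *Dusp4* made up 5.70% of that sum in M0, 0.738% in M1 and 28.0% in M2. The length of a gene joins the exons of all its annotated transcripts, whichever are expressed. The order between genes, the sums and the shares are uncertain to that extent.

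**Figure D1:**
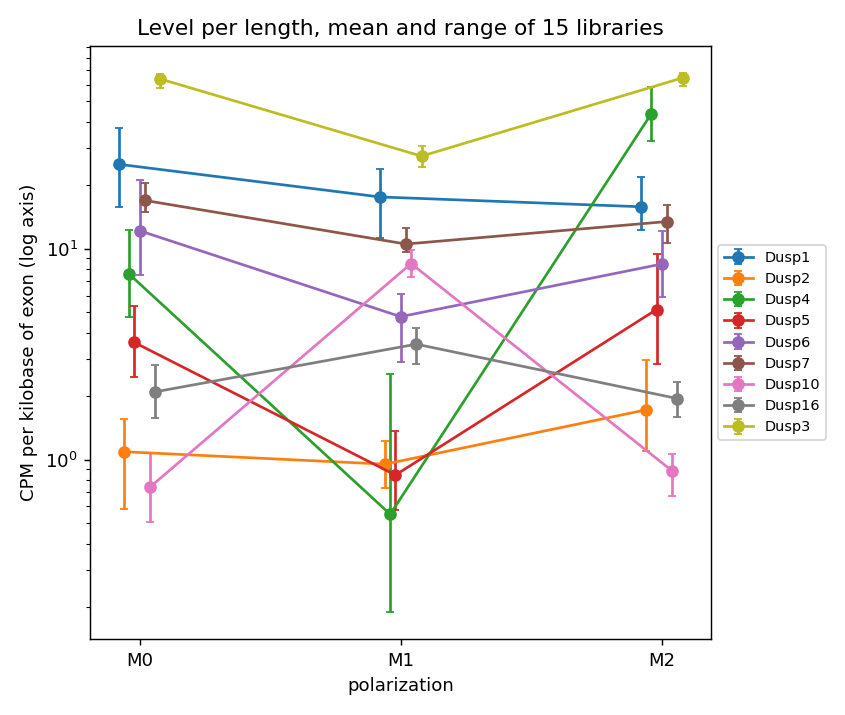
Level of each gene in CPM per kilobase of annotated exon (log axis) in M0, M1 and M2, as the mean of 15 libraries with a bar from the lowest to the highest library. *Dusp4* moves from the lowest place in M1 to the place below *Dusp3* in M2, *Dusp10* rises above *Dusp6* in M1, and *Dusp3* stays highest.

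The comparison of M1 with M0 asks how inflammatory activation sets the level of these brakes. *Dusp10* and *Dusp16*, the phosphatases that prefer JNK and p38, were higher in M1, and 6 of the remaining 7 were lower (edgeR quasi-likelihood test, Benjamini-Hochberg adjusted p under 0.05 over 12905 genes). The 8 of 9 members called stand beside 77.3% of all genes tested (37% higher and 40.3% lower), so the number called is close to the background. In size, 1 member (*Dusp10*) rose at least 2-fold, as did 8.3% of all genes, and 4 members (*Dusp3*, *Dusp4*, *Dusp5* and *Dusp6*) fell at least 2-fold, as did 13.3%. At 4-fold, the rise of *Dusp10* stood beside 3.38% of genes and the falls of *Dusp4* and *Dusp5* beside 5.59%. The 15 M1 libraries did not overlap the 15 M0 libraries for 2 members higher in M1 (15.2% of all genes) and for 5 members lower in M1 (13.5% of all genes).

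Among the inducible nuclear phosphatases, *Dusp4*, which acts on ERK and JNK, ranged from 13.0 to 33.5 CPM in M0 (median 19.2) and from 0.518 to 6.98 CPM in M1 (median 1.15). The ranges did not overlap, and M1 was lower in 15 of 15 mice. The log2 fold change was -3.93 ± 0.21 (SE), 15.3-fold lower, with an adjusted p of 2.66e-20 (edgeR). *Dusp5*, which dephosphorylates ERK alone, ranged from 6.10 to 13.3 CPM in M0 (median 8.41) and from 1.42 to 3.39 CPM in M1 (median 1.96). It too had no overlap and was lower in 15 of 15 mice, by 4.26-fold (log2 -2.09 ± 0.16, adjusted p = 6.91e-15, edgeR). *Dusp1* moved less. It ranged from 52.2 to 124 CPM in M0 (median 84.1) and from 37.2 to 78.7 CPM in M1 (median 57.7), and the ranges overlapped. It was lower in 14 of 15 mice, with a log2 fold change of -0.51 ± 0.13 (adjusted p = 0.000582, edgeR). *Dusp2* was not called, at 1.17 to 3.12 CPM in M0 (median 2.16) and 1.48 to 2.46 CPM in M1 (median 1.87), with a log2 difference of -0.20 ± 0.12 (95% interval -0.44 to 0.04, adjusted p = 0.128, edgeR). At these levels *Dusp2* rested on few reads, and the call changed when 2 libraries were left out (p254I replicate 4 in M0 and in M2), with a log2 difference of -0.25 and an adjusted p of 0.0463 (edgeR).

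The cytoplasmic ERK phosphatases were both lower in M1. *Dusp6*, a classic ERK feedback target, ranged from 23.4 to 66.4 CPM in M0 (median 36.3) and from 9.07 to 19.0 CPM in M1 (median 16.9). The ranges did not overlap, and the fall was 2.56-fold (log2 -1.36 ± 0.14, adjusted p = 1.22e-11, edgeR). *Dusp7* ranged from 49.96 to 68.5 CPM in M0 (median 56.8) and from 32.5 to 42.1 CPM in M1 (median 34.4), again with no overlap and a smaller fall of 1.61-fold (log2 -0.69 ± 0.05, adjusted p = 7.62e-17, edgeR). Both were lower in 15 of 15 mice.

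*Dusp10* had the largest rise. It was listed at 1.54 to 3.29 CPM in M0 (median 2.11) and at 22.3 to 29.8 CPM in M1 (median 25.9), higher in 15 of 15 mice with no overlap. The rise was 11.4-fold (log2 3.52 ± 0.08, adjusted p = 7.06e-33, edgeR). *Dusp16*, the larger of the pair and linked mainly to JNK, ranged from 12.3 to 21.8 CPM in M0 (median 16.8) and from 22.0 to 32.9 CPM in M1 (median 27.6). These ranges did not overlap by a narrow margin, and the rise was 1.68-fold (log2 0.75 ± 0.08, adjusted p = 9.95e-12, edgeR), seen in 15 of 15 mice. The atypical *Dusp3*, whose product acts on ERK and JNK, was at 271 to 316 CPM in M0 (median 300.4) and 114 to 143 CPM in M1 (median 130). It fell 2.32-fold without overlap (log2 -1.21 ± 0.03, adjusted p = 2.21e-31, edgeR), in 15 of 15 mice.

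**Figure D2:**
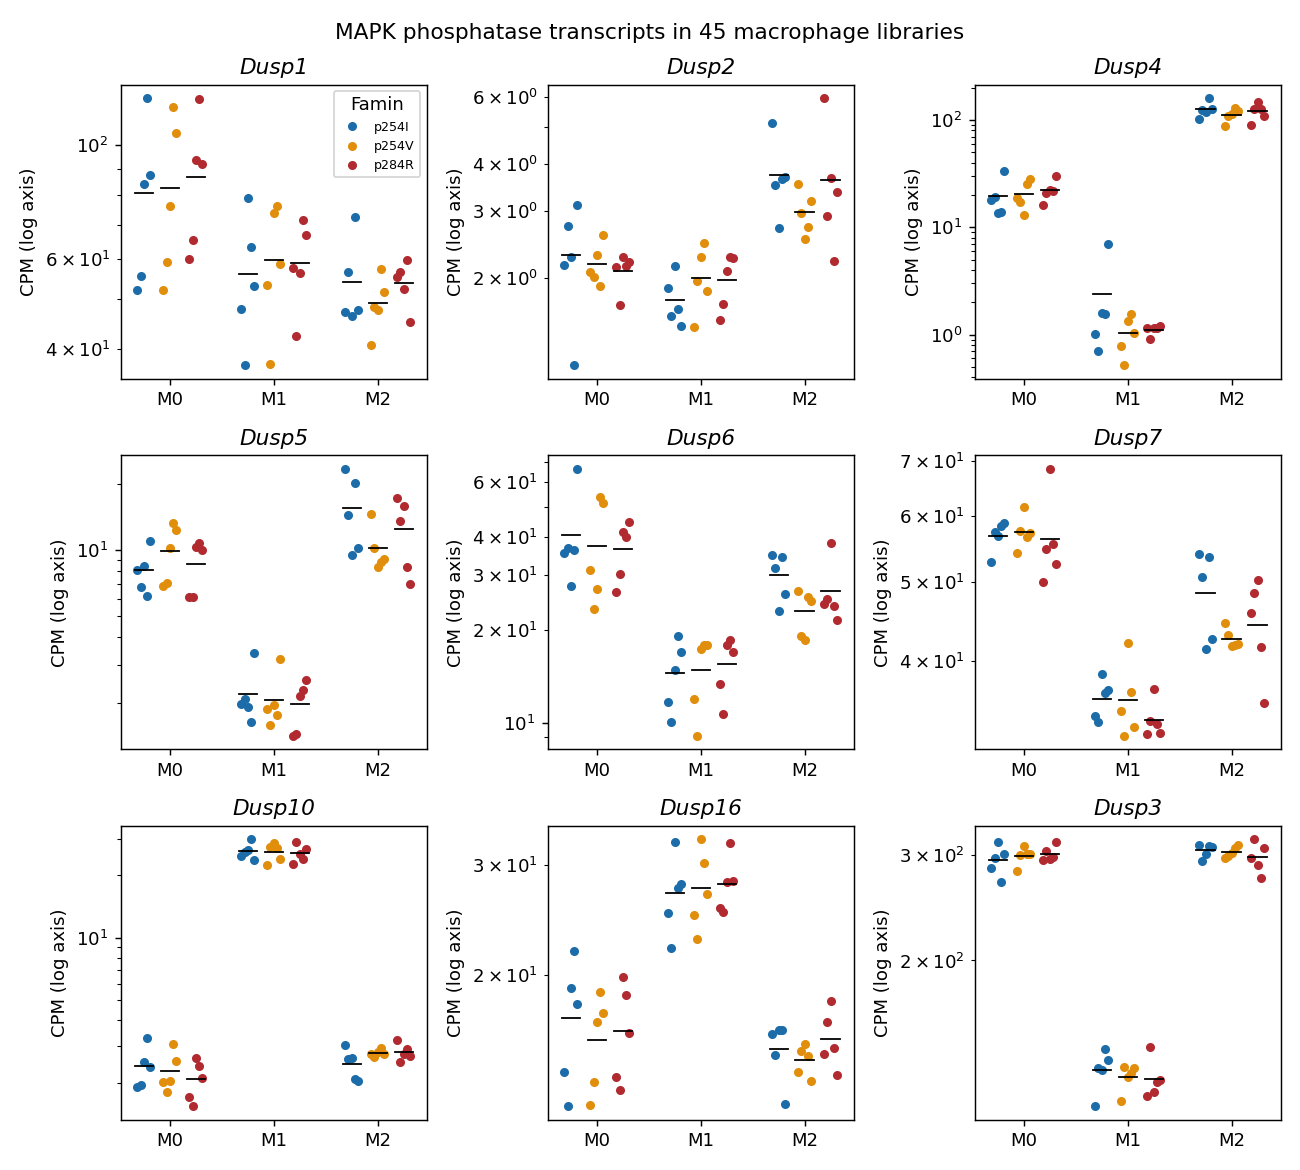
CPM (log axis, each panel on its own scale) of the 9 genes in all 45 libraries, by polarization and coloured by *Famin* genotype, with replicates 1 to 5 from left to right and a bar at each group's mean. In M1, *Dusp10* lies at 22.3 CPM or more in all 15 libraries and *Dusp4* at 1.59 CPM or less in 14 of 15, while the 3 genotypes share their ranges within each state.

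The comparison of M2 with M0 asks the same of IL-4. *Dusp4* separated from the rest of the family, with the highest M0 value below the lowest M2 value. Of the 9 members, 4 were higher (*Dusp2*, *Dusp4*, *Dusp5* and *Dusp10*), 3 were lower (*Dusp1*, *Dusp6* and *Dusp7*) and 2 were not called. The 7 called stand beside 76.4% of all genes tested (36.8% higher and 39.6% lower). *Dusp4* was the single member that rose at least 2-fold, as did 6.18% of genes, and it passed 4-fold, as did 2.46%. It was also the single member whose libraries did not overlap (13.6% of genes without overlap and higher, 9.78% without overlap and lower). Of the members, 0 fell by 2-fold or more, against 10.3% of genes (2.61% at 4-fold).

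*Dusp4* ranged from 88.5 to 159 CPM in M2 (median 121), higher than M0 in 15 of 15 mice. The rise was 5.74-fold (log2 2.52 ± 0.16, adjusted p = 3.41e-17, edgeR). *Dusp2*, an ERK and p38 phosphatase of activated leukocytes, ranged from 2.21 to 5.96 CPM (median 3.37) and overlapped M0, but it was higher in 15 of 15 mice, 1.57-fold on average (log2 0.65 ± 0.12, adjusted p = 4.61e-06, edgeR). *Dusp5* was more variable, at 7.03 to 23.4 CPM (median 10.2). It was higher in 9 mice and lower in 6, and the direction went with the replicate number: 6 of 6 mice numbered 1 or 2 were higher and 0 of 3 numbered 5. It had a log2 fold change of 0.50 ± 0.15 (adjusted p = 0.00236, edgeR), and was called in 1 of 3 single genotypes.

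*Dusp1* was at 40.7 to 72.5 CPM in M2 (median 51.7), lower than M0 in 14 of 15 mice (log2 -0.67 ± 0.13, adjusted p = 2.03e-05, edgeR). *Dusp6* was at 18.5 to 38.1 CPM (median 25.2), lower in 15 of 15 mice (log2 -0.53 ± 0.13, adjusted p = 0.000461, edgeR). *Dusp7* was at 35.6 to 54.0 CPM (median 43.0), lower in 14 of 15 mice (log2 -0.34 ± 0.05, adjusted p = 2.84e-08, edgeR). For all 3 the M2 and M0 ranges overlapped. *Dusp10* was at 2.04 to 3.22 CPM (median 2.73), a small rise in 12 of 15 mice (log2 0.25 ± 0.08, adjusted p = 0.00610, edgeR). *Dusp16*, at 12.4 to 18.2 CPM (median 15.1), had a log2 difference of -0.11 (95% interval -0.25 to 0.04), and *Dusp3*, at 275 to 319 CPM (median 303), one of 0.02 (95% interval -0.04 to 0.08). Neither was called, at adjusted p-values of 0.209 and 0.570 (edgeR).

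**Figure D3:**
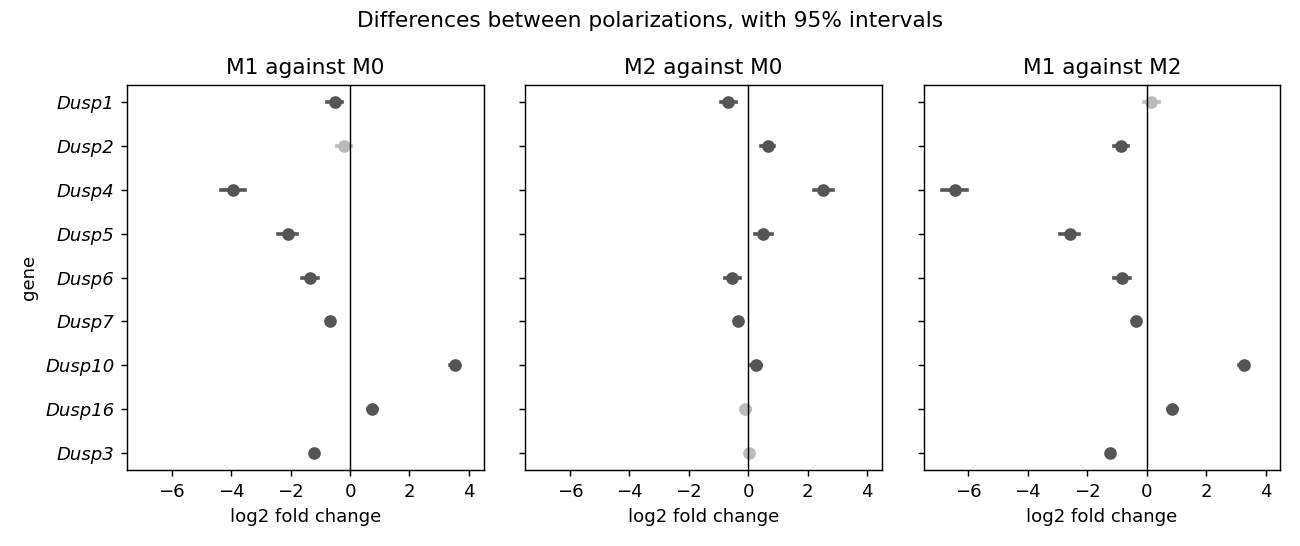
Log2 fold change of each gene between polarizations, averaged over the 3 genotypes, with 95% intervals (dark, adjusted p under 0.05; light, not called). *Dusp4* runs from -6.45 for M1 against M2 to 2.52 for M2 against M0, *Dusp10* lies above 3 in both comparisons with M1, and *Dusp16* and *Dusp3* lie near 0 for M2 against M0.

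M1 and M2 were also compared with each other. The 3 polarization comparisons share libraries pairwise, so their values are given side by side and not as independent evidence. *Dusp10* and *Dusp16* were higher in M1, *Dusp2*, *Dusp3*, *Dusp4*, *Dusp5*, *Dusp6* and *Dusp7* were higher in M2, and *Dusp1* was not called, which makes 8 of 9 beside 79.1% of all genes (39% higher and 40.1% lower in M1). Libraries did not overlap for 2 members higher in M1 (17.6% of genes) and 3 lower (18.1%), and 1 was at least 4-fold higher (5.31%) and 2 at least 4-fold lower (6.22%). *Dusp4* differed 87.7-fold (log2 -6.45 ± 0.21, adjusted p = 2.84e-27, edgeR), from 0.518 to 6.98 CPM in M1 to 88.5 to 159 CPM in M2. *Dusp10* differed 9.61-fold the other way (log2 3.26 ± 0.08, adjusted p = 3.67e-32, edgeR). *Dusp5* was 6.03-fold lower in M1 (log2 -2.59 ± 0.16) and *Dusp3* 2.35-fold lower (log2 -1.23 ± 0.03), both without overlap. *Dusp2* (log2 -0.85 ± 0.12), *Dusp6* (-0.82 ± 0.14) and *Dusp7* (-0.35 ± 0.05) were lower in M1 with overlapping ranges, and *Dusp16* was higher without overlap (0.86 ± 0.08). *Dusp1* had a log2 difference of 0.15 ± 0.13 (95% interval -0.10 to 0.41).

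Within single genotypes the direction of the large changes was the same. *Dusp10* was higher in M1 than M0 by log2 3.45 to 3.61 in the 3 genotypes, *Dusp3* was lower by log2 -1.25 to -1.17, *Dusp5* by -2.25 to -1.89 and *Dusp4* by -4.31 to -3.18. *Dusp4* was higher in M2 than M0 by 2.44 to 2.68. Each of these differences was called in 3 of 3 genotypes. Of all genes, 60%, 62.5% and 63.4% were called for M1 against M0 in p254I, p254V and p284R, and 60.6%, 57.4% and 59.9% for M2 against M0. *Dusp1* in M1 was called in 2 of 3, with log2 fold changes of -0.56 to -0.46. *Dusp5*, *Dusp6* and *Dusp10* in M2 were each called in 1 of 3, at 0.03 to 0.95, -0.71 to -0.43 and 0.05 to 0.43.

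The genotype comparisons ask whether the *Famin* allele alters these transcripts. *Lacc1* itself is changed in its coding sequence, so its read count does not check the genotype. Its level was not uniform within p284R. In p284R replicates 1 to 5 it was at 119, 108, 91.2, 169 and 160 CPM in M0 and at 122, 56.8, 66.6, 200 and 175 CPM in M2. The p254I and p254V libraries ranged from 157 to 257 CPM in M0 and from 159 to 183 CPM in M2. The reason for the spread within p284R was not tested. No member was called in any of 12 comparisons, 3 averaged over the polarizations and 9 within one, nor in 6 interactions of genotype with polarization (edgeR). Unadjusted p-values under 0.05 occurred in 5 of the 108 tests and in 3 of the 54 interaction tests. Of all 12905 genes, 53 to 864 had such a p-value in each of the 12 comparisons, and 70 to 356 in each of the 6 interactions (edgeR). Few genes of any kind were called. For p284R against p254I these were 0.0155% of genes on average over the polarizations 0.263% (34 genes) within M1 and 0.00775% within M2, and for p254V against p254I they were 0.0155% averaged and 0 genes within each polarization. For p284R against p254V they were 0 averaged and 0.0775% within M1. The count for p284R against p254I within M1 was not stable. With the replicate number as a block, the 34 genes within M1 became 343, and they became 1 when only the compared libraries were fitted, 0 without p284R replicate 5, 1 without p284R replicate 3 or 4, 96 without p284R replicate 1, 109 without p284R replicate 2, and 7, 10 and 13 without p254I replicate 4, 2 and 1. With the block, the averaged p284R against p254I comparison called 78 genes, and 0 members were called in any genotype comparison.

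The 103 differences with an unadjusted p of 0.05 or more ran from -0.39 to 0.29 on the log2 scale. Averaged over the polarizations, *Dusp3* differed between genotypes by -0.02 to -0.01 on the log2 scale, with 95% intervals that all lay within -0.08 to 0.05. *Dusp7* intervals lay within -0.17 to 0.07, *Dusp10* within -0.20 to 0.18 and *Dusp16* within -0.20 to 0.21. The other intervals were wider, within -0.26 to 0.32 for *Dusp1*, -0.31 to 0.30 for *Dusp2*, -0.43 to 0.34 for *Dusp5*, -0.42 to 0.35 for *Dusp6* and -0.77 to 0.50 for *Dusp4*. This fit counts the 3 cultures of a mouse as independent, 15 libraries per genotype for 5 mice, which can make the intervals too narrow. It also leaves the replicate number in the spread, which can make them too wide. With the replicate number as a block, p284R against p254I was 0.08 ± 0.05 for *Dusp1* and 0.02 ± 0.04 for *Dusp16* (log2, SE). The permutation tests that follow did not pair mice by replicate number. On mouse means of log2(CPM + 1), two-sided exact permutation tests of 5 against 5 mice gave no p under 0.135 in 27 comparisons, with an adjusted p of 1 for each. The smallest p this design allows is 0.00794, and the largest difference of mouse means was 0.19, for *Dusp4*.

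*Dusp4* in M1 had the largest genotype differences, and they rested on 1 library. The p254I libraries were at 1.01, 0.711, 1.59, 1.54 and 6.98 CPM. The p254V libraries were at 0.790, 0.518, 1.33, 1.55 and 1.04 CPM, and the p284R libraries at 1.15, 0.914, 1.15, 1.15 and 1.22 CPM. The 3 groups overlapped with or without the fifth p254I library, the one with M2 marker transcripts. With it, p284R was at -0.96 ± 0.44 (log2, adjusted p = 0.673, edgeR) and p254V at -1.07 ± 0.43 (adjusted p = 1, edgeR) relative to p254I. Without it the differences were -0.12 ± 0.36 and -0.23 ± 0.36. The difference of p254V from p254I averaged over polarizations went from -0.39 to -0.11, and both *Dusp4* interactions with M1 from -1.13 to -0.29. Leaving the library out moved *Dusp4* in M1 against M0 from -3.93 to -4.21. The part of the M2 marker transcripts in the *Dusp4* value of that library was not tested.

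**Figure D4:**
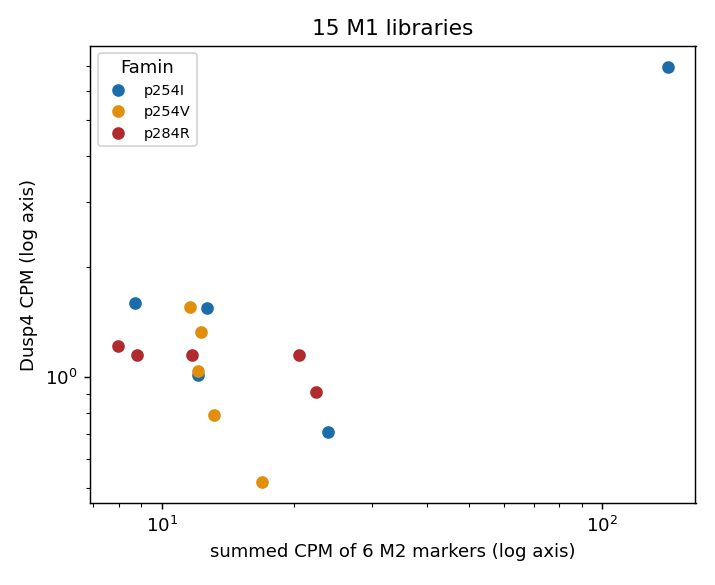
*Dusp4* (CPM, log axis) against the summed CPM of 6 M2 markers (log axis) in the 15 M1 libraries, coloured by *Famin* genotype. The p254I library with 141 CPM of M2 markers has 6.98 CPM of *Dusp4*, and the other 14 lie between 0.518 and 1.59 CPM.

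In M2, *Dusp5* and *Dusp7* were the members with an unadjusted p under 0.05, both for p254V against p254I. *Dusp5* was at 23.4, 14.5, 9.51, 20.3 and 10.2 CPM in p254I and at 14.6, 10.2, 8.32, 8.81 and 9.05 CPM in p254V, and the groups overlapped. The log2 difference was -0.62 ± 0.25 (adjusted p = 0.999, edgeR), and its interaction with M2 against M0 was -0.91 ± 0.36 (adjusted p = 1, edgeR). *Dusp7* was at 54.0, 50.6, 41.4, 53.5 and 42.5 CPM in p254I and at 44.6, 43.0, 41.8, 41.8 and 42.0 CPM in p254V, a log2 difference of -0.18 ± 0.08 (adjusted p = 0.999, edgeR). The p284R libraries ranged from 7.03 to 17.3 CPM for *Dusp5* and from 35.6 to 50.3 CPM for *Dusp7*, overlapping both groups, with 2 p254I libraries above them for *Dusp5* and 3 for *Dusp7*. Compared by replicate number in M2, p254V lay below p254I in 5 of 5 pairs for *Dusp2*, *Dusp4*, *Dusp5* and *Dusp6* and in 4 of 5 for *Dusp7*. It lay below in 3 of 5 pairs for *Dusp1* and *Dusp16*, in 2 of 5 for *Dusp3* and in 1 of 5 for *Dusp10*. The share of all genes with such pairs was not computed. With the replicate number as a block, *Dusp5* differed by -0.59 ± 0.18 (adjusted p = 0.490, edgeR), *Dusp7* by -0.18 ± 0.06 (adjusted p = 0.490, edgeR) and *Dusp6* by -0.39 ± 0.17 (adjusted p = 0.508, edgeR), so 0 of these passed the threshold.

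The replicate number moved several members in all 3 genotypes at once. Its meaning across genotypes is not given in the sources used here. In M0, *Dusp1* was at 52.2, 55.5, 84.1, 124 and 87.5 CPM in p254I replicates 1 to 5, at 52.2, 59.1, 76.1, 119 and 106 CPM in p254V, and at 59.9, 65.2, 93.6, 123 and 92.0 CPM in p284R. The 6 libraries numbered 1 or 2 (52.2 to 65.2 CPM) lay below the 9 others (76.1 to 124 CPM). *Fos*, an immediate early gene outside the family, had the same division, at 71.6 to 95.1 CPM and 164 to 226 CPM, and so did *Dusp16*, at 12.3 to 14.0 CPM and 16.1 to 21.8 CPM. *Egr1*, another immediate early gene, overlapped in M0 (7.15 to 11.5 CPM and 5.41 to 12.1 CPM) and was higher in the libraries numbered 1 or 2 in M2 (43.1 to 64.2 CPM against 16.2 to 30.6 CPM). In M2 the *Fos* ranges overlapped, at 60.0 to 94.6 CPM and 70.7 to 101 CPM. Of the other members, *Dusp10* had the division in M0, by a narrow margin. In M1, *Dusp6* had it, at 9.07 to 13.3 CPM and 14.8 to 19.0 CPM. *Dusp16* had it in M1 too, at 22.0 to 25.6 CPM and 26.9 to 32.9 CPM. In M2 no member had it. The share of all genes with this division was not computed. Marker sums in M0 also moved with the number: M2 markers were at 20.7 to 48.3 CPM in libraries numbered 1 or 2 and at 6.90 to 18.0 CPM in the others, and neutrophil markers at 61.2 to 204 CPM and 19.4 to 65.1 CPM. Their part in the division was not tested. The division was noticed after the values had been seen. An F test of the 5 replicate numbers in M0 gave an adjusted p of 1.45e-08 for *Dusp1* and 4.70e-07 for *Dusp16* (edgeR), and 6 of 9 members were called, beside 51.5% of all genes. In M1, 5 of 9 members were called (33% of genes) and in M2, 4 of 9 (34.6% of genes).

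**Figure D5:**
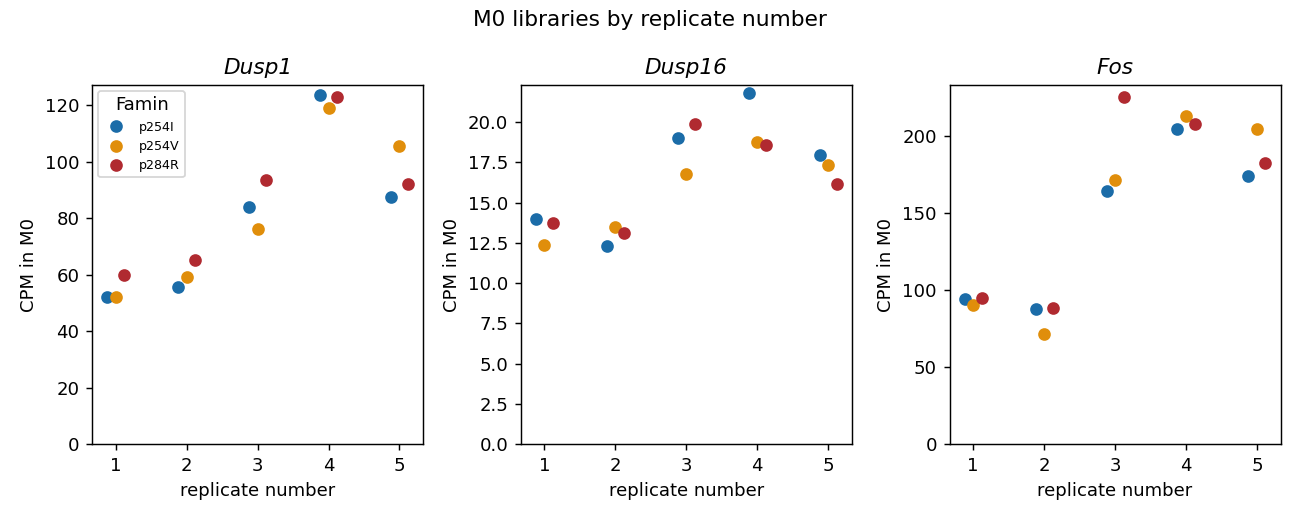
CPM of *Dusp1*, *Dusp16* and *Fos* in the 15 M0 libraries by replicate number, coloured by *Famin* genotype. For all 3 genes the libraries numbered 1 or 2 lie below those numbered 3, 4 or 5, in each genotype.

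Across the 45 libraries the members fell into patterns that are given as a description, since the points share polarization, replicate number and depth. *Dusp10* and *Dusp16* went together (Pearson r = 0.907 of log2 CPM), and *Dusp10* ran opposite to *Dusp3* (r = -0.981) and *Dusp5* (r = -0.894). *Dusp4*, *Dusp5* and *Dusp3* went together (r = 0.908 to 0.923), as did *Dusp6* and *Dusp7* (r = 0.862). *Dusp1* followed none of them closely, with its highest r at 0.593, to *Dusp6*.

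The genes most like each member over the 45 libraries were also listed. For *Dusp10* they were *Bst1* (r = 0.992), an NAD-metabolizing surface enzyme, and *Psmb8* (r = 0.988), an immunoproteasome subunit, at 306 and 773 CPM in M1 against 20.9 and 123 CPM in M0. For *Dusp4* they were *Atp6v0a1* (r = 0.991), a subunit of the vacuolar proton pump, and *Fam129b* (r = 0.987). For *Dusp3* they were *Emp1* (r = 0.991) and the interleukin-7 receptor gene *Il7r* (r = 0.988), both low in M1. For *Dusp6* the most alike gene was *Spry2* (r = 0.950), which encodes another feedback inhibitor of ERK signalling, followed by *Bsn* (r = 0.944). For *Dusp5* they were *Ttc7b* (r = 0.965) and *Lonrf3* (r = 0.960). For *Dusp7* they were *Fam84b* (r = 0.945) and *Sncaip* (r = 0.934). For *Dusp16* they were the cyclin gene *Ccnd2* and the calcium sensor gene *Stim2* (both r = 0.944). For *Dusp1* they were *Tnfrsf11a* (r = 0.926), which encodes the receptor RANK, and *Gsdme* (r = 0.912). The closest to *Dusp2*, *Phlda1* (r = 0.835) and *Itpkb* (r = 0.834), were less alike.

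For the pathway lists that follow, the background is that of all genes, 37% higher and 40.3% lower in M1 and 36.8% higher and 39.6% lower in M2. The MAPK list covers the kinase family and so takes in ERK5 beside ERK, JNK and p38. Of 10 MAPK genes tested, 3 were higher and 6 lower in M1 than in M0 (median log2 -0.20, against -0.03 over all genes), and 3 higher and 5 lower in M2 (median -0.09, against -0.03). In M1, *Mapk13* (p38δ) rose by log2 3.50 ± 0.29 from 0.266 CPM, *Mapk9* (JNK2) rose by 1.20 ± 0.02, and *Mapk11* (p38β) fell by 1.59 ± 0.17. In M2, *Mapk11* (log2 -1.68 ± 0.17), *Mapk13* (-1.15 ± 0.42) and *Mapk7* (ERK5, -0.84 ± 0.05) were lower.

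Of 7 MAP2K genes, 5 were higher and 2 lower in M1, and 4 higher and 1 lower in M2. *Map2k6*, an activator of p38, was higher in both (log2 0.99 ± 0.11 and 0.41 ± 0.11), while *Map2k3*, another p38 activator, was lower in M1 (-0.35 ± 0.05) and higher in M2 (0.30 ± 0.05). Of 17 MAP3K genes, 7 were higher and 5 lower in M1, and 5 higher and 10 lower in M2. *Map3k9* was higher in M1 (0.58 ± 0.09) and lower in M2 (-1.13 ± 0.09), and *Map3k5* (ASK1) was lower in M2 (-1.43 ± 0.07). Of 10 kinases activated by MAPKs, 4 were higher and 4 lower in each comparison. *Mapkapk2* (MK2), the p38 target kinase, was higher in M1 (0.63 ± 0.05), and *Rps6ka2* (RSK3) was lower (-1.49 ± 0.06).

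Immediate early genes are induced by ERK and other MAPKs. Of 11 tested, 2 were higher and 8 lower in M1 (median log2 -0.69, against -0.03 over all genes), and 7 were higher and 2 lower in M2 (median log2 1.05, against -0.03). *Egr2* fell in M1 (log2 -3.16 ± 0.21) and rose in M2 (3.06 ± 0.20), *Myc* fell in M1 (-1.86 ± 0.15), *Fosl2* rose in M2 (2.30 ± 0.07), and *Egr1* rose in both (2.11 ± 0.22 and 1.96 ± 0.22). Of 5 Sprouty and SPRED genes, 0 were higher and 3 lower in M1, and 2 were higher and 3 lower in M2. *Spry2* was lower in M1 (-1.51 ± 0.15) and in M2 (-0.62 ± 0.14). Of 5 scaffold genes, 0 were higher and 2 lower in M1, and 3 were higher and 0 lower in M2, with *Ksr2*, a scaffold of the ERK cascade, at log2 3.17 ± 0.16 in M2.

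Of 11 further dual specificity phosphatase genes tested, 3 were higher and 5 lower in M1 (median log2 -0.05), and 5 higher and 1 lower in M2 (median 0.09). *Dusp9*, a close relative of *Dusp6* and *Dusp7*, fell in M1 (log2 -3.03 ± 0.16) and had a log2 difference of -0.13 ± 0.13 in M2 (adjusted p = 0.387, edgeR), *Dusp28* rose in M1 (2.37 ± 0.07), and *Dusp23* (1.43 ± 0.08) and *Dusp18* (0.99 ± 0.08) rose in M2. *Dusp8*, which prefers JNK and p38, was lower in M1 (-0.51 ± 0.12) and in M2 (-1.27 ± 0.12). Of the 2 tyrosine phosphatase genes with a kinase interaction motif that were tested, 0 were called in M1 and 2 were higher in M2, *Ptpn7* by log2 0.36 ± 0.06.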

How the data were processed

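The authors deposited counts, whole reads per Ensembl gene without normalization, and a CPM table for 11900 genes, from which 100% of values gave back whole reads (within 0.01) equal to the counts. The paper and the processing notes name TrimGalore, HISAT2 and mm10, whereas the series design text names Cutadapt and STAR. The counting tool, its annotation and its use of strand are not given in the sources used here. Exons of *Dusp1*, *Dusp3* and *Dusp5* overlap genes on the other strand, so their counts are uncertain to that extent. Exon lengths came from GENCODE vM21.

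Counts of 45 libraries were fitted with edgeR 4.0.16 in R 4.3.3 (filterByExpr over 9 groups, 12905 genes; TMM factors of 0.939 to 1.10; robust glmQLFit and glmQLFTest with no block; Benjamini-Hochberg over all genes, called under 0.05). The standard error is the fold change divided by the square root of F. Polarizations were averaged over genotypes and genotypes over polarizations. In simulated counts, 71.6% of genes changed by a log2 of 0.5 and 100% of those changed by 1 were called for M1 against M0. For p284R against p254I within M1 these were 53.8% and 85.1%. The simulated libraries were independent, with no effect of mouse or replicate number, and each gene started from its mean over all 45 libraries. The shares may therefore not hold for the data, where replicate number moved many genes.

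Same-numbered libraries of a genotype were taken as cultures of 1 mouse because the study states 5 mice per genotype. Their deviations correlated over 0.1 in 15 of 15 pairs between M2 and M0, 12 of 15 between M1 and M0 and 9 of 15 between M1 and M2 (median r 0.124), so the values alone do not settle it. Across genotypes, deviations of same-numbered libraries correlated over 0.1 in 15 of 15 pairs in M0 and in M1, and in 13 of 15 in M2 (9071 genes). The members and gene lists were chosen with earlier results of these data known. The text names all 9 members, the up to 3 called genes of each list with the largest change and a mean of at least 1 CPM, and the 2 genes most correlated with each member (log2 CPM, prior count 1). Alternatives were DESeq2 size factors, the DESeq2 1.42.0 Wald test, limma-voom (limma 3.58.1), no low-count filter, at least 10 counts in every library, only the libraries compared, replicate and mouse blocks, summed counts per mouse and each mouse left out. Leaving out libraries that stood apart, the reads from the CPM table and the F test of the replicate number were added after seeing the data. A pseudocount of 1 was used for mouse means, with 0.5 as the alternative. The deposited CPM values entered only that added fit. Some items that these rules select are not reported here.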

Additional observations from a re-analysis of the deposited data

Results flagged for a closer look

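In each of 81 sets of 5 libraries (9 genes in 9 groups), the highest or lowest library was compared with the others by Dixon's ratio (critical value 0.71), and 9 were apart, where chance gives about 1 in 20. In M1 of p254I, *Dusp4* replicate 5 was at 6.98 CPM against 0.711 to 1.59 CPM in the other 4 libraries, and *Dusp5* in the same library was at 3.39 CPM against 1.65 to 2.10 CPM. In M0 of p254I, replicate 5 was highest for *Dusp4* (33.5 CPM against 13.5 to 19.2 CPM) and for *Dusp6* (66.4 CPM against 27.7 to 36.7 CPM). *Dusp5* was at 3.19 CPM in p254V M1 replicate 5 against 1.59 to 1.96 CPM. In p284R, *Dusp4* was at 0.914 CPM in M1 replicate 2 (others 1.15 to 1.22 CPM), *Dusp7* at 37.1 CPM in M1 replicate 3 (others 32.7 to 33.8 CPM), *Dusp6* at 38.1 CPM in M2 replicate 3 (others 21.4 to 25.2 CPM) and *Dusp2* at 1.69 CPM in M0 replicate 2 (others 2.13 to 2.26 CPM).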

How the results depend on the processing

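Under the alternatives run, 79 results were recomputed in 1768 values, and 0 fold changes reversed. For the member fold changes between polarizations, 674 of 675 values kept their direction and side of the threshold. Most other results were counts of genes called, which were scored as kept if close to the main count, not only if equal. By these rules 1761 of the 1768 values were kept. The exceptions were *Dusp2* in M1 against M0 and the tyrosine phosphatase list in the same comparison. *Dusp2* was called at -0.25 without p254I replicate 4 in M0 and M2. In the list, 1 gene was called instead of 0 with mouse as a block, and 0 to 1 when each mouse was left out. The cause was not tested. The block was the mouse for comparisons of polarizations and for interactions, and the replicate number for genotype comparisons. With these blocks, no member gained or lost a call in any comparison, and *Dusp4* in M1 against M0 was -3.93. *Dusp4* genotype differences in M1 depend on p254I replicate 5, as described above. *Dusp2*, *Dusp10* in M0 and M2, and *Dusp4* in M1 rest on few CPM, where counting error is largest. Across the alternatives *Dusp4* in M1 against M0 ran from -4.21 to -3.85 and *Dusp10* from 3.48 to 3.57.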

Other observations

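The immediate early genes *Jun*, *Jund* and *Ier2* were not matched in the count table, and *Junb* was listed at a mean of 0.0273 CPM over the 45 libraries, next to 103 CPM for *Fos*. Counts of the immediate early list therefore describe 11 of the 15 genes listed.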
